A study of Mus musculus with 10 samples.

Results

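The genes described here are 36 genes of cholesterol and fatty acid synthesis, chosen by symbol from the 17945 named genes of a table of mouse islet RNA sequencing, and all 36 were in it. They comprise 19 genes of the sterol branch, 12 of the fatty acid branch and 5 regulators that serve both. The islets came from C57BL/6 mice aged 18 weeks, with 5 libraries labelled knockout and 5 labelled control. Knockout mice carried the Cre driver Pdx1-CreER and Grk5 flox/flox alleles, and controls carried Grk5 flox/flox alleles without the driver. Both groups therefore share the floxed alleles, and an effect of the driver cannot be told apart from an effect of losing Grk5. Pdx1-CreER is a Cre recombinase fused to an estrogen receptor domain, made to act in Pdx1-expressing cells after tamoxifen. The sources used here do not say when tamoxifen was dosed. Grk5 encodes a receptor kinase, linked in the title of the series to β-cell proliferation. In whole islets, fewer cells of a type and less RNA per cell cannot be told apart.

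Cells build cholesterol from acetyl-CoA by way of mevalonate, farnesyl diphosphate, squalene and lanosterol, and build fatty acids from acetyl-CoA by way of malonyl-CoA. Both routes are driven by the SREBP transcription factors, which stay in the endoplasmic reticulum bound to SCAP and INSIG while sterols are plentiful and travel to the Golgi to be cut free when sterols are low. SREBP2 is known mainly for the sterol genes and SREBP1 for the fatty acid genes. In β cells both cholesterol and acyl chains supply the membranes of insulin granules.

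No gene of either branch passed the test between the groups. Of 36 members, 34 reached 10 normalized counts in 5 or more libraries and were tested. None of the 34 had an adjusted p under 0.05 by limma, against 0% of the 11711 genes tested. Before adjustment, 1 member had p under 0.05 with lower values in knockouts (Acly) and 1 with higher (Acaca), where 2.66% of all genes tested were lower and 2.36% higher, so the members' count is near the background. The exact permutation test gave no member p under 0.05. No member had groups that did not overlap, while 0.427% of all genes were lower and 0.435% higher without overlap. The sterol branch had 14 of 18 tested members with lower values and a median log2 fold change of -0.21, and the fatty acid branch had 7 of 11 and a median of -0.27. Over all genes tested, 52.4% had lower values and the median was -0.03.

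The 10 libraries had totals of 5534386 to 7358040 normalized counts, with 10222 to 14632 genes above 0. Knockout 1 had the fewest genes above 0 and the most members listed at 0, 6 of 36. Control 4 and knockout 4 listed 4 members at 0, and the remaining libraries 1 to 3. Grk5 was 242 ± 112 in controls against 161 ± 74.9 in knockouts (SD, n = 5 in each), and the groups overlapped (log2 fold change -0.55 ± 0.42 SE, adjusted p = 0.955 by limma). The log2 fold change of the targeted gene Grk5 ran from -0.36 without control 3 to -0.76 without knockout 1, and was -0.94 both with library quality weights (limma, unadjusted p = 0.0277, adjusted p = 0.877) and without controls 2 and 5. Esr1 encodes an estrogen receptor, a part of which is fused to Cre in CreER, and was examined after its values were known. It was 1516.7 to 3176.8 in knockouts, and whether these reads come from the transgene was not tested. It was also 2495 in control 2 and 773.5 in control 5, against 0 to 10.5 in the other controls, so these libraries labelled control stand apart from the others. Group names here are those of the labels. Without controls 2 and 5, 27 of 34 members had lower values, the sterol median was -0.31 and the fatty acid median was -0.23. Over all genes tested in that fit, 53.6% had lower values and the median was -0.046. The log2 fold change of 18 of the 34 members then turned or moved by over 1.5 times. That ratio also counts small shifts near 0, such as those of Insig1 and Insig2. No other pair of controls was left out, so the count has no background. In the sterol branch, Hmgcs1 went from -1.76 to -1.05, Tm7sf2 from -1.14 to -0.65, Cyp51 from -0.23 to -0.50 and Mvd from -0.10 to -0.24. Sqle went from -0.19 to -0.06, Ebp from -0.19 to -0.03, Nsdhl from 0.14 to 0.36, Stard4 from 0.15 to 0.39, Dhcr7 from 0.21 to 0.13 and Mvk from 0.28 to -0.04. In the fatty acid branch, Fads1 went from 0.35 to 1.63, Scd1 from -0.57 to -1.27 and Elovl6 from -0.34 to -0.69. Among the regulators, Srebf1 went from -0.21 to -0.03, Srebf2 from 0.01 to -0.54, Scap from 0.09 to -0.05, Insig1 from -0.09 to -0.02 and Insig2 from -0.02 to -0.05. None of the 34 passed after adjustment by limma in that fit.

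Markers show what else the preparations held. All 9 β-cell markers were measured and had lower values in knockouts (median log2 fold change -0.21), and their summed level was 957700 to 1180000 in controls and 968300 to 1280000 in knockouts. The log2 fold changes were near 0 for Ins2 (-0.01), G6pc2 (-0.04), Iapp (-0.06) and Ins1 (-0.08). They were lower for Ucn3 (-0.21), Nkx6-1 (-0.22), Pdx1 (-0.25), Mafa (-0.34) and Slc2a2 (-0.49). Of 21 acinar markers tested, 19 had lower values (median -0.88), with a summed level of 24540 to 265900 in controls and 35590 to 91260 in knockouts. Ptf1a, a defining acinar factor, was listed at 0 in 8 of the 10 libraries and reached 12.9 in a control, too low to be tested. All 6 endothelial markers had higher values (median 0.23, summed level 2109 to 2709 against 2627 to 3264). The alpha (5 tested, median -0.12), delta and PP (3 tested, -0.27), ductal (4 tested, 0.07), stromal (5 tested, 0.02) and macrophage and lymphoid markers (4 tested, 0.24) had members on both sides of 0 in all but the delta and PP list, where all 3 were lower. The summed macrophage and lymphoid level was 752 in knockout 4, with Ptprc at up to 585 in knockouts, against 71.8 to 176 in the other 9 libraries. Of 8 adipocyte markers, 3 were matched in the table (Fabp4, Lipe and Retn), the other 5 were not analysed here, and the summed level was 6.59 to 141 in controls and 26.2 to 104 in knockouts. The part of any of these cells in the members' values was not tested, beyond a fit with the acinar level as a covariate that is given with the alternatives.

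The members' start sites were searched for the letters that SREBP and its partner NF-Y are known to bind. RefSeq promoter windows on GRCm38.p6, from 250 bases before to 50 after the start, were at hand for 29 of the 36 members. Each was searched on both strands for the sterol regulatory element as TCACNCCAC, the NF-Y box as CCAAT and the E-box as CACGTG. The NF-Y box was in at least 1 window of 14 of 15 sterol genes, 6 of 9 fatty acid genes and 4 of 5 regulators, while 41.1% of the 27025 genes with windows held it. The sterol element in this spelling was in the window of Hmgcs1 alone among the members, and in 1.44% of all genes. The E-box was in 6 of 29 members, against 8.09% of all genes. A match is a description of letters, not of binding, and no match says only that these letters are not in the window. The 250 bases before the start are shown for the enzyme with the sterol element (Hmgcs1), the enzyme that closes the sterol rings (Lss), the fatty acid member with lower values and the smallest p (Acly) and the fatty acid synthase gene itself (Fasn). Capitals mark the sterol element and the NF-Y boxes on either strand, and in Fasn 2 of the boxes overlap.
Hmgcs1, chr13:119690101-119690350, plus strand: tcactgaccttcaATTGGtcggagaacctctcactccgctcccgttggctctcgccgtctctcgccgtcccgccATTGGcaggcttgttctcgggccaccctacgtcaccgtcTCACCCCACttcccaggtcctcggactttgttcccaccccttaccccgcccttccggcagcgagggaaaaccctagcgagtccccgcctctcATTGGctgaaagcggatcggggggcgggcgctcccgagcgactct
Lss, chr10:76531355-76531604, plus strand: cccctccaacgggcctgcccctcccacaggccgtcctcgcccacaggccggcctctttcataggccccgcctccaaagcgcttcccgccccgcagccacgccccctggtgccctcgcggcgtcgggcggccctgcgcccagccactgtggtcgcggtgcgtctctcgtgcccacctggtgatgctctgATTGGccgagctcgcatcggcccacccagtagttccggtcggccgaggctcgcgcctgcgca
Acly, chr11:100528001-100528250, minus strand: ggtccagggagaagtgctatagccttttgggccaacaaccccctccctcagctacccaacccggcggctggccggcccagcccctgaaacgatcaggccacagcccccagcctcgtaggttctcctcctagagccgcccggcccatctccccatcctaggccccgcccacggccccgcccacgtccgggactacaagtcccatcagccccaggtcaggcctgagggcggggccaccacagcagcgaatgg
Fasn, chr11:120824548-120824797, minus strand: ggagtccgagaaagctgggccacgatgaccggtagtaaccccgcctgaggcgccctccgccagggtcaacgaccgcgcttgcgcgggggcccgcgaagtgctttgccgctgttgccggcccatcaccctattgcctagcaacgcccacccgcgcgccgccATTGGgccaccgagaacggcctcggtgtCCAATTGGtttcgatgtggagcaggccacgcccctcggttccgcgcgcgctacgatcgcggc
Hmgcs1 and Fasn each show 3 NF-Y boxes here, Lss shows 1 and Acly none. In the whole windows, which add the 50 bases after the start, Hmgcs1 held 4 and Acly 1.

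Levels between genes can be compared only per length, so each normalized count was divided by the kilobases of exon in GENCODE M21. All annotated exons of a gene were merged, so this length can exceed that of the transcripts expressed. The order of genes is therefore approximate. Acly, which cuts citrate to acetyl-CoA and so feeds both branches, had the highest level of the 36, 1240 ± 150 counts per kilobase in controls against 1030 ± 125 in knockouts (SD, n = 5 in each). Insig1 followed at 301 ± 37.7 and 287 ± 57.4, then Elovl5 at 179 ± 21.5 and 244 ± 93.5. Msmo1 was the highest sterol gene per kilobase, at 201 ± 46.7 and 154 ± 47.3, followed by Sqle at 136 ± 32.4 and 117 ± 19.2. Scd2 was at 139 ± 47.1 and 112 ± 25.9, far above its paralogue Scd1 at 11.7 ± 6.84 and 6.91 ± 4.68. The carboxylases were also unequal, with Acaca at 20.2 ± 11.7 and 38.5 ± 19.9, and Acacb at 0.44 ± 0.677 and 0.966 ± 1.46.

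**Figure D1:**
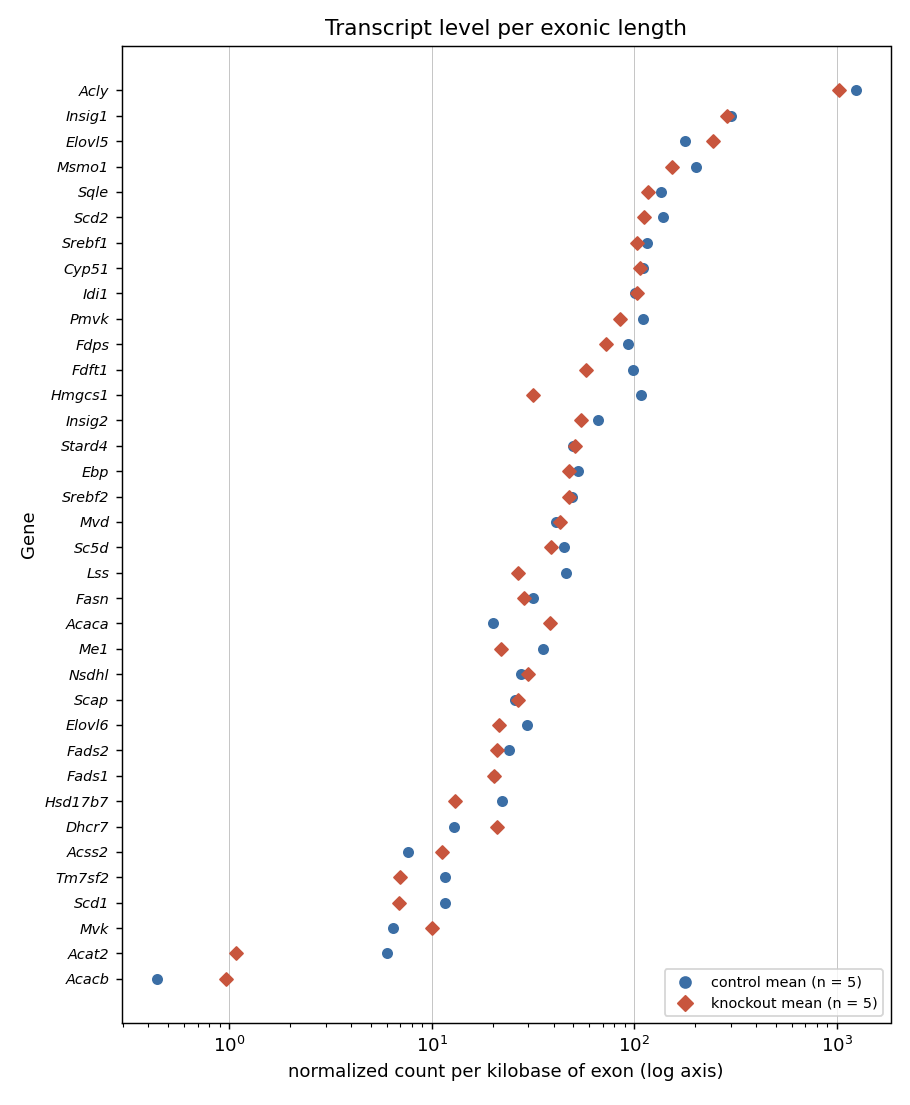
Mean normalized count per kilobase of exon (log axis) for each of the 36 genes in control (circles) and knockout (diamonds) libraries, n = 5 each, ordered by the mean over all libraries. Acly is the highest and Acacb the lowest in both groups.

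In the early mevalonate steps, values varied widely between libraries of a group. Hmgcs1, which condenses acetoacetyl-CoA with acetyl-CoA to HMG-CoA, was 1078.2, 821.7, 316.5, 0 and 268.9 normalized counts in controls 1 to 5, against 39, 29.3, 0, 435.2 and 225.8 in knockouts 1 to 5. Controls 1 and 2 were the highest, while control 4 and knockout 3 were listed at 0, and no knockout exceeded 435.2. Its log2 fold change was -1.76 ± 1.52 (SE, unadjusted p = 0.276, adjusted p = 0.957 by limma), the lowest of the 34, and it was -2.97 without control 4 and -0.99 without knockout 3. Mvk, mevalonate kinase, had the highest log2 fold change of the sterol branch, 0.28 ± 0.79 (SE), with 23.6, 17.8, 42.4, 2.3 and 0 in the 5 controls and with 0, 41.4, 55.6, 0 and 37.2 in knockouts. Both groups held libraries at or near 0, and its direction turned without controls 2 and 5 (-0.04). Pmvk, the next kinase, was 138.2 to 295 in controls and 166 to 201.7 in knockouts other than knockout 1, where it was listed at 0. Its log2 fold change of -0.92 ± 0.75 (SE) was -0.01 without knockout 1. Mvd, which decarboxylates the product, was 47 to 97.8 in controls and 24.8 to 157.9 in knockouts. Acat2, which makes acetoacetyl-CoA, was listed at 0 in 5 libraries and was not tested, with 42.7 in control 1 as its highest value. Of the 75-base windows of Acat2 transcripts, 33.9% also occur in another gene, chiefly Acat3, so its level is uncertain.

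Sqle and Fdps, in the isoprenoid and squalene steps, had the smallest coefficients of variation of the sterol branch over the 10 libraries, 21.3% and 21.5%. Fdps, farnesyl diphosphate synthase, was 394 ± 78.4 in controls against 306 ± 42.7 in the knockout libraries (SD, n = 5 in each), with a log2 fold change of -0.34 ± 0.28 (limma, SE, adjusted p = 0.955), and an exact 2-sided permutation test gave p = 0.0635 (adjusted p = 0.919 over all genes). Controls 1, 3, 4 and 5 lay above every knockout, and control 2 lay among them. GENCODE places another gene over 26.7% of the Fdps exons on the same strand, so its level is uncertain. Idi1, the isomerase before it, was 260.6 to 449 and 212.9 to 560.6. Of the 75-base windows of Idi1 transcripts, 16.7% also occur in another gene, chiefly Gm13502, so its level is uncertain too. Sqle, squalene epoxidase, was 467.2 to 938.9 and 489.2 to 741.8 (log2 fold change -0.19 ± 0.25 SE).
Fdft1, squalene synthase, was 802.2, 530.4, 337.3, 247.2 and 158.6 in controls 1 to 5, against 358.5, 191.4, 113.4, 270.5 and 287 in knockouts 1 to 5. Controls 1 and 2 lay above every knockout and control 5 below all but knockout 3. Its log2 fold change was -0.63 ± 0.43 (SE, unadjusted p = 0.158, adjusted p = 0.942 by limma), -0.34 without control 1 and -0.39 without knockout 3. Exons of other genes on the opposite strand overlap 18.3% of its exons, and the use of strand in counting was not given in the sources used here. Such overlap was 13.2% for Scap, 12.1% for Hmgcs1, 9.22% for Idi1 and 9.12% for Acss2, and lower for the other members.

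From lanosterol to cholesterol, 7 of 10 tested enzymes had lower values and 3 (Nsdhl, Dhcr7 and the sterol carrier gene Stard4 counted with them) had higher. Lss, which closes the sterol rings, was 240.4, 208.2, 560, 515.3 and 957.6 in controls 1 to 5, against 88.5, 305.5, 401.3, 366.4 and 271.3 in knockouts 1 to 5. Controls 3, 4 and 5 lay above every knockout, while controls 1 and 2 lay above knockout 1 alone. The log2 fold change was -0.71 ± 0.45 (SE, unadjusted p = 0.131, adjusted p = 0.942 by limma), -0.35 without knockout 1 and -0.43 without control 5. Msmo1, the oxidase that removes methyl groups from the ring, was 888.8, 1088.7, 1588.5, 1131.5 and 1464.3 in controls and 647.1, 727.5, 846.3, 1266.8 and 1241.5 in knockouts. Knockouts 1 to 3 lay below every control, and knockouts 4 and 5 lay within the controls' range. Msmo1 had the smallest p of the sterol branch, with a log2 fold change of -0.40 ± 0.24 (limma, SE, unadjusted p = 0.111, adjusted p = 0.942) and 95% limits of -0.90 to 0.10.
Tm7sf2, a sterol reductase, was 30.6, 91.4, 40.3, 22.6 and 72.8 in controls and 89, 0, 46.5, 0 and 18.5 in knockouts. Knockouts 2 and 4 were listed at 0 and knockout 1 was near the highest control (log2 fold change -1.14 ± 0.79 SE, unadjusted p = 0.166, adjusted p = 0.942 by limma). GENCODE places another gene over 12.1% of the Tm7sf2 exons on the same strand, so its level is uncertain. Hsd17b7, a sterol ketone reductase, was 222.2, 103.2, 106.7, 83.8 and 51.6 in controls and 0, 85.7, 59.6, 91.5 and 93.8 in knockouts. Control 1 was the highest and knockout 1 was listed at 0, and the log2 fold change of -0.99 ± 0.71 (SE) was -0.30 without knockout 1. The other enzymes had wide and overlapping ranges. Cyp51, the lanosterol demethylase, was 265.7 to 630.3 in controls and 165.8 to 816 in knockouts, Ebp 53.8 to 221 and 30 to 191.5, Sc5d 124.6 to 373.7 and 106.5 to 312, and Nsdhl 22.7 to 120.6 and 40.8 to 142.5. Dhcr7, the last reductase, was 28.6 to 122.6 and 12.8 to 368.1, with knockout 1 the highest. Stard4, a carrier of sterols between membranes, was 140.9 to 488.8 and 196.5 to 362.9.

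**Figure D2:**
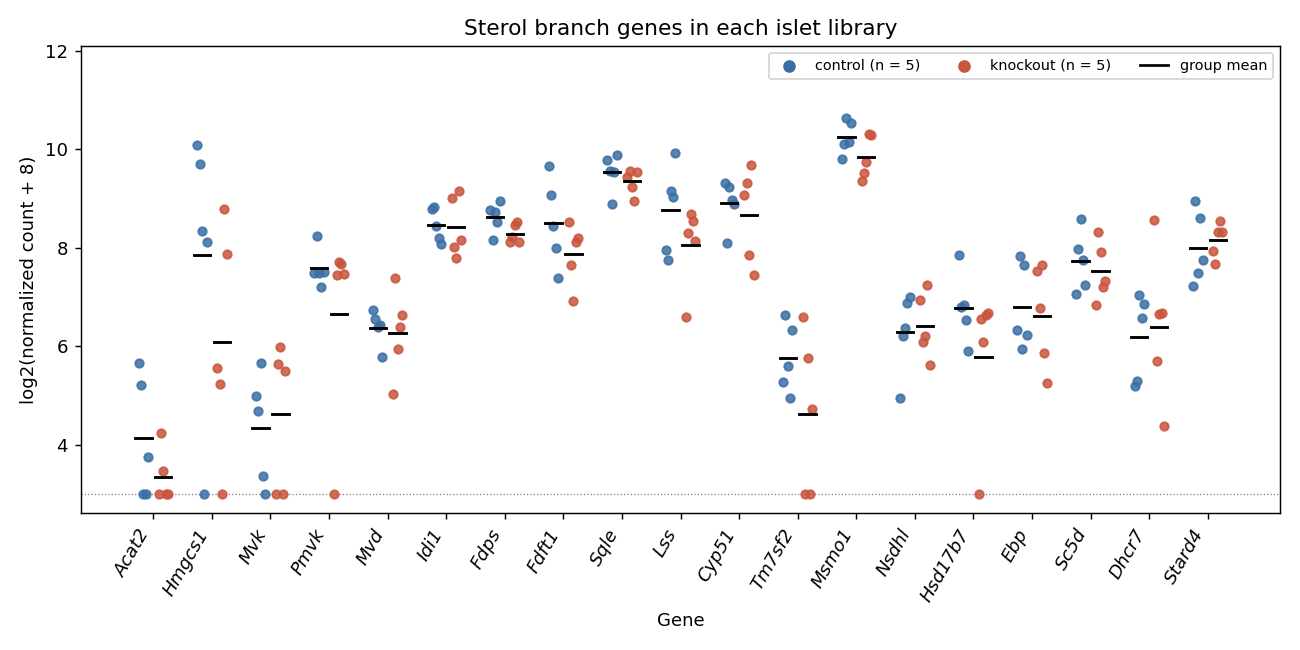
Sterol branch genes in order of the route: each point is log2(normalized count + 8) in 1 library, with controls left and knockouts right of each gene (n = 5 each), bars the group means, and the dotted line a count of 0. The groups overlap for every gene, and Hmgcs1 spans the widest range, from 0 to 1078.2 normalized counts.

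The fatty acid branch held both members with an unadjusted p under 0.05, and they lay in opposite directions. Acaca (chromosome 11, 84129672 to 84401651 in GENCODE on GRCm38), acetyl-CoA carboxylase, which makes the malonyl-CoA that commits carbon to fatty acids, was 240.1, 689.6, 337.3, 187.1 and 272 in controls 1 to 5, against 355.6, 970, 537.9, 357.1 and 1067.6 in knockouts 1 to 5. Every knockout lay above controls 1, 3, 4 and 5, but control 2 lay above knockouts 1, 3 and 4. It had a log2 fold change of 0.91 ± 0.39 (limma, SE, unadjusted p = 0.0304, adjusted p = 0.942). An exact 2-sided permutation test gave p = 0.0794 (adjusted p = 0.919 over all genes), where the smallest p possible is 0.00794. The log2 fold change was 1.19 without control 2, 1.23 without controls 2 and 5, and 0.70 without knockout 5. With the acinar level as a covariate it was 0.55 (limma, unadjusted p = 0.188, adjusted p = 0.997). Of the 75-base windows of its transcripts, 26.8% also occur in another gene, chiefly the processed pseudogene Gm5182, so its level is uncertain. The authors' deposited table gives Acaca a log2 fold change of 0.93 with p = 0.0353 and an adjusted p of 0.658, and Acaca is the 1 member of 36 with a p under 0.05 in the authors' deposited table.
Acly (chromosome 11, 100476353 to 100528000), upstream of it, was 7600.4, 6741, 6174.4, 5465.4 and 6783.3 in controls and 5648.7, 6291.1, 5508.1, 4464.3 and 5323.1 in knockouts. Controls 1, 2 and 5 lay above every knockout, and controls 3 and 4 lay among the knockouts. The means were 6553 ± 792 and 5447 ± 659 (SD, n = 5 in each), with a log2 fold change of -0.27 ± 0.12 (limma, SE, unadjusted p = 0.0439, adjusted p = 0.942) with 95% limits of -0.53 to -0.01. The exact permutation test gave p = 0.0556 (adjusted p = 0.919 over all genes), and without controls 2 and 5 the log2 fold change was -0.23 (unadjusted p = 0.156 by limma). The coefficient of variation of Acly over the 10 libraries, 15.0%, was the smallest of the 36 members, and the authors' deposited table gives it a log2 fold change of -0.27 with p = 0.0957.

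The synthase and the enzymes that supply it had values in both directions, none past the test. Fasn, which builds palmitate from malonyl-CoA, was 210.6 to 461.1 in controls and 78.9 to 647.6 in knockouts (log2 fold change -0.40 ± 0.44 SE), and was -0.01 without knockout 2. Me1, malic enzyme, a source of NADPH, was 141.8, 128.8, 117.6, 244.4 and 50.5 in controls and 45.5, 149.3, 67.1, 13.6 and 146.3 in knockouts. Control 4 was the highest and knockout 4 the lowest, and knockouts 2 and 5 lay above 4 of the 5 controls. Me1 had the lowest log2 fold change of the branch in the fit of all 10 libraries, -0.84 ± 0.61 (SE, unadjusted p = 0.188, adjusted p = 0.945 by limma). Without knockout 4 it was -0.39, with Scd1 (-0.79) and Fasn (-0.57) lower, and without controls 2 and 5 it was -1.20, with Scd1 (-1.27) lower. Of the 75-base windows of Me1 transcripts, 16.4% also occur in another gene, chiefly Gm7049, so the level of Me1 is uncertain. Acss2, which activates acetate, was 19.5 to 132.3 and 25.8 to 204.4. Acacb, the mitochondrial carboxylase, was listed at 0 in 6 libraries, reached 31.6 in knockout 2, and was not tested.

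Among the enzymes that lengthen and desaturate the acyl chain, Elovl5, an elongase of polyunsaturated chains, was 612.3, 729.5, 541.2, 583.8 and 682.3 in controls and 957.3, 883.5, 577.6, 529.4 and 1344.1 in knockouts. Knockouts 1, 2 and 5 lay above every control, while knockouts 3 and 4 lay among or below them. The log2 fold change of Elovl5 was 0.37 ± 0.26 (SE, unadjusted p = 0.179, adjusted p = 0.942 by limma), and 0.19 without knockout 5. Elovl6, which elongates palmitate, was 90.1 to 335 and 103.4 to 183.5 (log2 fold change -0.34 ± 0.42 SE). Scd2, a stearoyl-CoA desaturase, was 917.2, 1106.6, 581.3, 734.3 and 464.8 in controls and 472.1, 750.3, 543.2, 517.6 and 778.7 in knockouts, with controls 1 and 2 above every knockout and control 5 below every knockout. Its log2 fold change was -0.27 ± 0.27 (SE, unadjusted p = 0.327, adjusted p = 0.963 by limma), and it ran from -0.12 without control 2 to -0.43 without control 5. Scd1 was 63.6 to 87.7 in controls 1 to 4 and 20.6 to 54.1 in knockouts 1 to 4, and was listed at 0 in control 5 and in knockout 5. Over all libraries the groups overlapped (log2 fold change -0.57 ± 0.82 SE, unadjusted p = 0.492, adjusted p = 0.969 by limma). Fads1, a desaturase of polyunsaturated chains, was listed at 0 in controls 1 and 4 and knockout 1 and lay between 22.2 and 188.7 elsewhere. Its partner Fads2 was 43.1 to 104.2 and 44.8 to 120.7.

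The 5 regulators had a median log2 fold change of -0.02 and a range of -0.21 to 0.09, and none had an unadjusted p under 0.05 by limma. Srebf1, which encodes SREBP1, was 735.9, 754.6, 463.7, 525.7 and 800.9 in controls and 787.4, 725.4, 335.5, 605.6 and 438.8 in knockouts (log2 fold change -0.21 ± 0.28 SE, adjusted p = 0.969 by limma). Knockout 3 was the lowest and knockout 1 lay close to the highest control, and the log2 fold change was -0.04 without knockout 3. Srebf2, which encodes SREBP2, was 553.5, 63.1, 481.8, 295.9 and 384.5 in controls and 213, 659.4, 241.5, 470.5 and 129.8 in knockouts. Control 2 was the lowest of the 10 libraries and knockout 2 the highest, and the log2 fold change of 0.01 ± 0.54 (SE) became -0.54 without controls 2 and 5. Scap, the escort protein, was 117.9, 141.7, 256.5, 266.5 and 173.6 in controls and 159.7, 184.4, 284.2, 145.9 and 223.7 in knockouts, with both groups spread over the same range. Insig1, a retention protein that is itself a target of SREBP, was 796.5, 1062.8, 842.8, 1035.8 and 917.2 in controls and 653.2, 1054.8, 830, 1075.1 and 817.7 in knockouts. Knockout 1 lay below every control and knockout 4 just above the highest, and the 95% limits of its log2 fold change of -0.09 were -0.53 to 0.36. Insig2 was 550, 129.1, 180, 58.3 and 237.4 in controls and 203.1, 239, 91, 275.2 and 139.8 in knockouts, with control 1 the highest and control 4 the lowest.

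**Figure D3:**
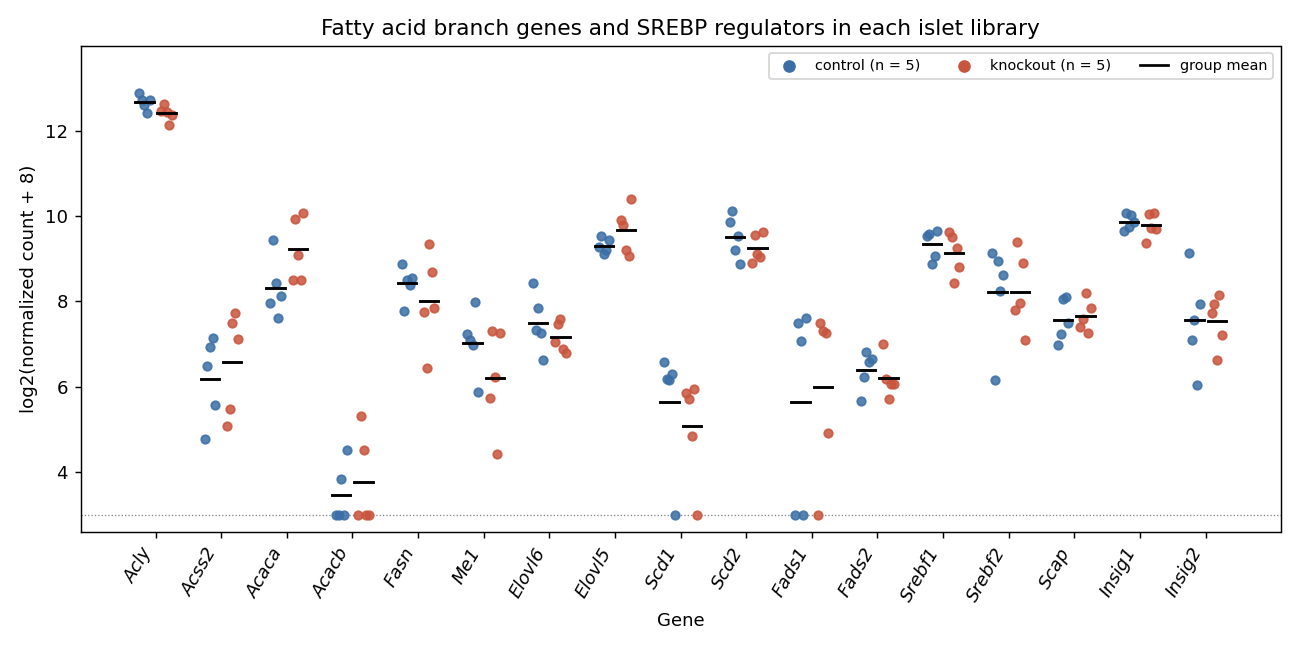
Fatty acid branch genes and, from Srebf1 onwards, the regulators: each point is log2(normalized count + 8) in 1 library, with controls left and knockouts right of each gene (n = 5 each), bars the group means, and the dotted line a count of 0. Acaca has 4 controls below every knockout and control 2 among them, and Insig1 is nearly level.

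The sterol branch was set beside the fatty acid branch. The difference of the branch medians, sterol minus fatty acid, was 0.05, and it ran from -0.17 without knockout 2 to 0.11 without control 4. It was below 0 in 9 of the 10 fits that left out 1 library, so the branches' order by median was not stable. The means of the log2 fold changes were further apart, -0.39 for the sterol branch and -0.08 for the fatty acid branch, and the regulators' was -0.05. Averaged over the 18 tested sterol genes, log2(value + 8) was 7.62, 7.80, 7.73, 7.30 and 7.52 in controls 1 to 5, against 6.90, 7.24, 7.22, 7.46 and 7.20 in knockouts 1 to 5. Knockouts 1, 2, 3 and 5 lay below every control, and knockout 4 lay above control 4, where Hmgcs1 was listed at 0. Values of 0 also entered the average of knockout 1 (Mvk, Pmvk and Hsd17b7), knockout 2 (Tm7sf2) and knockout 3 (Hmgcs1). The same held for knockout 4 (Mvk and Tm7sf2) and control 5 (Mvk). The part of these values in the averages was not tested. Knockout 4 is also the library with the summed macrophage and lymphoid level of 752, and its part in this average was not tested. Averaged over the 11 fatty acid genes it was 7.69, 8.22, 8.15, 7.77 and 7.55 in controls and 7.39, 8, 8.03, 7.80 and 7.77 in knockouts. Here the groups covered nearly the same range. The gap, sterol minus fatty acid, was -0.28 ± 0.22 in controls against -0.59 ± 0.19 in knockouts (SD, n = 5 in each), with knockout 4 inside the controls' range. These averages over chosen genes carry no test.
Counted against each gene's own median over the 10 libraries, control 3 had 14 of 18 sterol genes above it and knockouts 2 and 5 had 6. Over all 34 tested genes the count was 16 to 22 in controls and 11 to 19 in knockouts, lowest in knockout 1, the library with the fewest genes above 0. The within-group SD on the log2 scale had a median of 0.77 for sterol genes, 0.73 for fatty acid genes and 0.44 for regulators, against 0.84 for all genes tested.

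**Figure D4:**
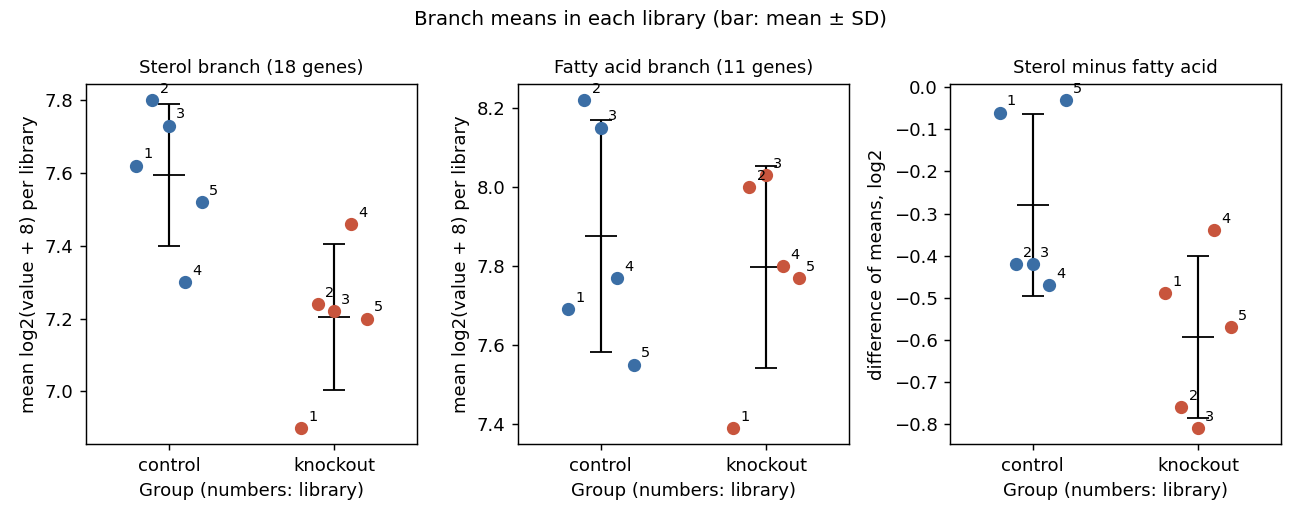
Mean log2(value + 8) per library over the 18 sterol genes (left), over the 11 fatty acid genes (middle) and the difference of these means (right), with library numbers beside the points and bars for the group mean ± SD (n = 5 each). The sterol mean is 7.59 in controls and 7.20 in knockouts, and the fatty acid mean 7.88 and 7.80.

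**Figure D5:**
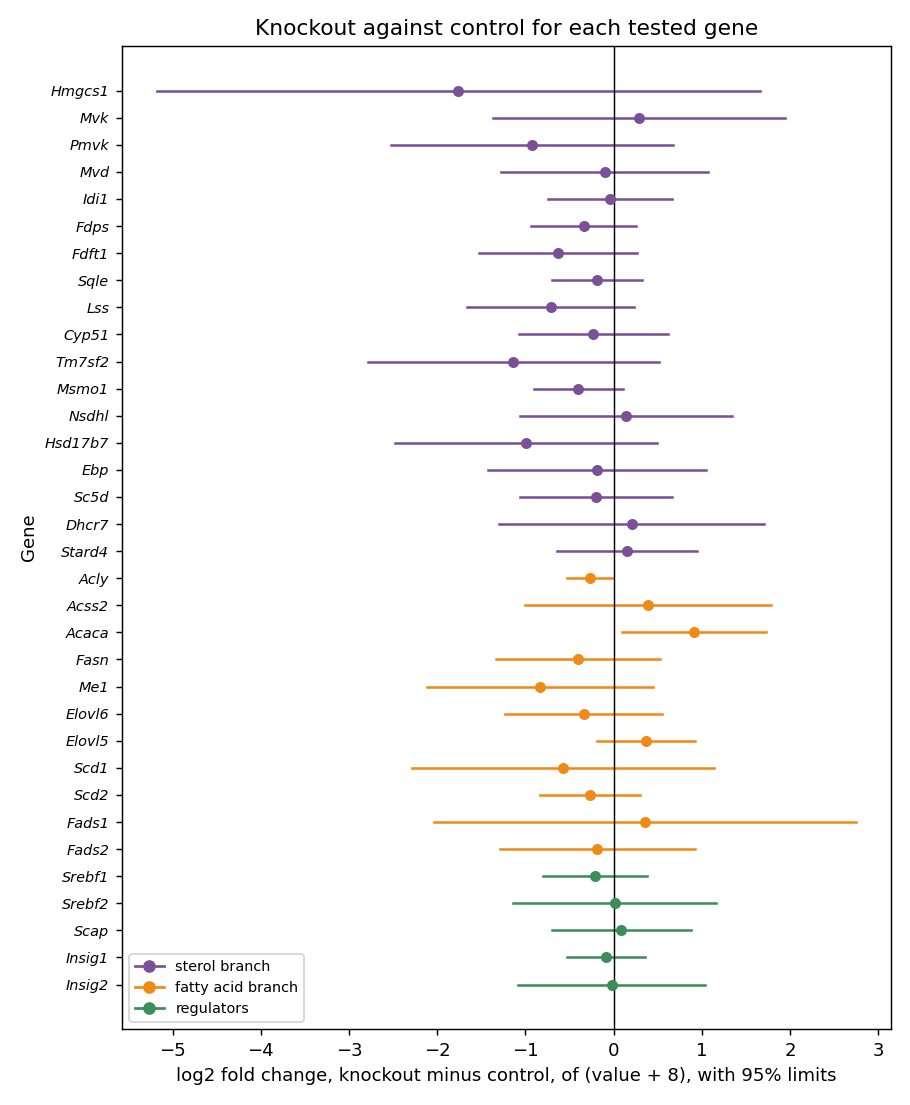
Log2 fold change of knockout against control on the log2(value + 8) scale with 95% limits for the 34 tested genes, coloured by branch. The limits exclude 0 for Acly and Acaca alone, before adjustment over all genes.

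Genes around the synthesis routes were counted next. Of 28 genes of sterol handling and control, 26 were tested, with 18 lower and 8 higher (median log2 fold change -0.19). None passed by limma after adjustment, and at an unadjusted p under 0.05 there were 2 higher and 1 lower. Over all genes tested, 2.36% were higher and 2.66% lower at that threshold, and the list was chosen with earlier results known. Soat1, which esterifies cholesterol for storage, was 227.1, 191.5, 149.5, 247.7 and 276.8 in controls 1 to 5, against 563.5, 683.8, 331.2, 308.4 and 323.9 in knockouts 1 to 5. Every knockout lay above the highest control, as 0.435% of all genes tested did, and the log2 fold change was 0.94 ± 0.33 (SE, unadjusted p = 0.0106, adjusted p = 0.942 by limma). It ran from 0.77 to 1.05 with single libraries left out and was 1.01 without controls 2 and 5. Nceh1, a cholesteryl ester hydrolase, was 289.6, 234.5, 378, 519.2 and 352.3 in controls and 86.2, 206.9, 239.2, 315.4 and 198 in knockouts. Knockouts 1, 2 and 5 lay below every control (log2 fold change -0.80 ± 0.37 SE, unadjusted p = 0.0458, adjusted p = 0.942 by limma), and the log2 fold change was -0.52 without knockout 1. Lipa, the lysosomal ester hydrolase, had a log2 fold change of 1.5 ± 0.68 (limma, SE, unadjusted p = 0.0414, adjusted p = 0.942) from 25.7 ± 22.5 to 71 ± 26.6 (SD, n = 5 each). The groups overlapped, with control 5 at 58.1 and knockout 5 at 48.6, and control 3 was listed at 0. Without control 3 the log2 fold change of Lipa was 1.06 (limma, unadjusted p = 0.13, adjusted p = 0.985).
Of 39 genes of fatty acid supply, use and control, 32 were tested, with 17 lower, 15 higher and a median of -0.03. None passed by limma after adjustment and none had an unadjusted p under 0.05. The smallest p belonged to Mlxipl, the carbohydrate-response transcription factor of lipogenic genes, at 1771 ± 290.4 and 1373 ± 372 (SD, n = 5 in each), with a log2 fold change of -0.39 ± 0.20 (limma, SE, unadjusted p = 0.0708, adjusted p = 0.942). G6pdx, a source of NADPH, had a log2 fold change of -0.91 ± 0.51 (SE).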

How the data were processed

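Islet RNA was depleted of ribosomal RNA and made into libraries with a stranded random-primed kit, per the labels' protocols. Per the submitters' processing notes the tools were STAR 2.4.0.1, HTSeq and DESeq2, with no roles stated, and a genome build was not given in the sources used here. Values deposited by the authors are normalized counts per gene, a signal on a common scale between libraries. They are not whole reads: 22.6% to 33.6% of a library's nonzero values equalled, within 0.01, a whole multiple of its commonest low value, so no count model was used and the depth in reads is unknown. The authors' deposited table also gives log2 fold changes, a test score and p-values, quoted only where named. Of 17946 rows, 1 named no gene and was dropped.

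Genes with at least 10 in at least 5 libraries were compared as log2(value + 8) with limma 3.58.1 in R 4.3.3 (trend, robust), with Benjamini-Hochberg adjustment over all 11711. Fold changes on this scale understate those of low genes. Exact permutation tests used all 252 arrangements of the libraries. Separate animals are not stated in the labels, so p-values measure the spread between libraries. Alternatives were other scalings, filters, pseudocounts, variance settings, weights, an acinar covariate and omitted libraries. The limma step was tested on simulated data. Exon lengths came from GENCODE M21 (GRCm38, possibly another build than the authors'), and promoter sequences from RefSeq. Shared 75-base windows were counted over GENCODE transcripts. Python 3.11.15 drew the figures.

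The members and lists were chosen with earlier results of these data known. Values are given by library for the 5 members with the smallest p in each branch and the regulators and for the lowest and highest fold change of each branch. From each further list the 3 genes with the smallest p are named, except 1 that is not reported here.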

Additional observations from a re-analysis of the deposited data

Results flagged for a closer look

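In 68 groups of 5 libraries (34 tested genes in controls and in knockouts), 5 held a library set apart from the other 4 by Dixon's test on log2(value + 8), where chance gives about 1 group in 20. Hmgcs1 was listed at 0 in control 4, against 268.9 to 1078.2 in the other controls. Pmvk and Hsd17b7 were both listed at 0 in knockout 1, against 166 to 201.7 and 59.6 to 93.8 in the other knockouts. Lss was 88.5 in knockout 1, against 271.3 to 401.3 in the other knockouts. Scd1 was listed at 0 in control 5, against 63.6 to 87.7 in the other controls. Of these 5, 3 are in knockout 1, which had 10222 genes above 0, and the part of its depth in them was not tested.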

How the results depend on the processing

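No member passed the adjusted threshold under any alternative run. Of 34 members, 20 kept the direction of their log2 fold change under every alternative and 14 did not under at least 1. The count of members lower at an unadjusted p under 0.05, 1 in the reported fit, was 0 with total-count scaling, 0 without trend and robust variance, 0 without controls 2 and 5, and 3 with the acinar covariate (Hmgcs1 at -3.37, Fdft1 at -1.01 and Acly at -0.31). The count higher, 1 in the reported fit, was 0 without trend and robust variance and 0 with the acinar covariate. With single libraries left out the counts ran from 0 to 2 lower and 0 to 1 higher. The share of all genes under this unadjusted threshold was not counted in the alternative fits, so these counts have no background there. Directions turned for the log2 fold change of Srebf2 (-0.011 with a pseudocount of 32, -0.004 with upper-quartile and -0.005 with TMM scaling, -0.54 without controls 2 and 5), for Mvd (0.036), Nsdhl (-0.10) and Dhcr7 (-0.21) with quality weights, for Fads1 (-0.29) with the acinar covariate, and for Mvk (-0.044) and Scap (-0.05) without controls 2 and 5. With single libraries left out, directions also turned within the ranges of Cyp51 (-0.48 to 0.078), Dhcr7 (-0.34 to 0.71), Ebp (-0.44 to 0.15), Fads1 (-0.31 to 1.10), Idi1 (-0.22 to 0.12), Insig1 (-0.16 to 0.018), Insig2 (-0.40 to 0.37), Mvd (-0.38 to 0.21), Mvk (-0.058 to 0.69), Nsdhl (-0.20 to 0.34), Sc5d (-0.40 to 0.013), Scap (-0.062 to 0.22), Srebf2 (-0.51 to 0.29) and Stard4 (-0.042 to 0.39). The difference of the branch medians ran from -0.17 to 0.11 and was -0.06 with quality weights. Where a value moved, the cause was not tested. No paired analysis was possible because the labels give no replicate numbers. Count models were not run because whole reads could not be recovered.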
